A study of Mus musculus with 40 samples.

Results

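The 10 genes described here encode the molecular circadian clock and its output: Arntl (also known as Bmal1), Clock, Npas2, Per1, Per2, Per3, Cry1, Nr1d1, Nr1d2 and Dbp. They were taken by symbol from a table of 52636 genes, measured in brown adipose tissue of 40 male C57BL/6 mice. All 10 were among the 17079 genes with enough counts to be tested. The mice formed 8 groups of 5. Each mouse had received a single intraperitoneal dose of antibody, either a control antibody against ragweed (40 mg/kg) or anti-Jag1 with anti-Jag2 (20 mg/kg each), which block 2 ligands of the Notch receptors. Both kinds of mice were sampled at 15 h, 5 d and 7 d. A further pair of groups, sampled at 7 d, also received thyroxine (T4, 1 ug/g) and triiodothyronine (T3, 0.05 ug/g) daily from day 2. The series text gives an age of 10 to 12 weeks and the sample text 10 to 14 weeks. The samples are bulk tissue, in which fewer cells of a type and less RNA per cell cannot be told apart. Mice are named by the numbers in their labels, 1 to 5 in control groups and 6 to 10 in Jag antibody groups. A number shared between groups is taken to mark different mice, which the labels do not state. The labels give the time since the dose, but not the clock hour of the dose or of collection.

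The clock is a transcriptional feedback loop present in nearly every cell of the body. CLOCK, or its paralogue NPAS2, pairs with ARNTL and activates genes that carry E-box elements, among them the Per and Cry genes, Nr1d1, Nr1d2 and Dbp. The PER and CRY proteins then repress that activity, which closes the main loop. The nuclear receptors NR1D1 and NR1D2 (REV-ERB alpha and beta) repress Arntl, Clock and Npas2 through ROR response elements, in competition with the activating ROR receptors. DBP activates genes through D-box elements, and its own level follows ARNTL activity closely. In brown fat, REV-ERB alpha is known for repressing the thermogenic gene Ucp1 over the day, and Per1 and Per2 can also be induced outside the loop by glucocorticoids and by cAMP signalling.

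Promoter sequence shows where such elements lie in the members. RefSeq promoter windows on GRCm38.p6 matched 9 of the 10 genes, with 13 windows in all, and each reaches 250 bases upstream of a transcription start. They were searched on both strands for the E-box CACGTG, the variant E-prime box CACGTT, the D-box TTANGTAA, the cAMP response element TGACGTCA and the ROR response element. Matches were found in Per1, Per3, Cry1, Nr1d1 and Arntl, and these stretches are shown because together they hold elements of the different arms of the loop. Of all 32851 promoter windows, 7.15% held the E-box, 4.68% the E-prime box, 2.32% the D-box, 0.384% the ROR element and 1.79% the cAMP element. Capitals mark the matches, read 5′ to 3′ on the strand of the gene. For Arntl, which has its match just downstream of a start, only 30 bases around it are shown.

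Per1: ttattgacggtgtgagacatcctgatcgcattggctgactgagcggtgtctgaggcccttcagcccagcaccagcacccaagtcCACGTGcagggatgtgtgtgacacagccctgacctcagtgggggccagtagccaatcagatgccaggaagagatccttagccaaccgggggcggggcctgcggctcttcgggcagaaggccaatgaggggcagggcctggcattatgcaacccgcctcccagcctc

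Cry1: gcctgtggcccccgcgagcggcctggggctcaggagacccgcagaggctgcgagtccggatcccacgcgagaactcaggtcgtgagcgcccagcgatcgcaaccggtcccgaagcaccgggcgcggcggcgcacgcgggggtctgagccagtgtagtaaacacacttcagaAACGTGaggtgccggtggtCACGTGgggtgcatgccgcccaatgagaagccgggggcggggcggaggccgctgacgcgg

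Nr1d1: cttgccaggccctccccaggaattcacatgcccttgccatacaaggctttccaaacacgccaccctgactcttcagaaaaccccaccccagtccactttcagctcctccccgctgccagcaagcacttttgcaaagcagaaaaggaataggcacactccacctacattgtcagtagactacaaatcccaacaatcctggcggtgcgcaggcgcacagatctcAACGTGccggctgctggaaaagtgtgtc

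Per3: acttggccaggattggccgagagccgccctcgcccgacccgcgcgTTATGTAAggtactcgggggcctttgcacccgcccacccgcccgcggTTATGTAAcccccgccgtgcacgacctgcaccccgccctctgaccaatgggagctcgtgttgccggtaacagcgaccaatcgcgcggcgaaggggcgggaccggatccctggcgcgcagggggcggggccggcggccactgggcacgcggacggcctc

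Arntl: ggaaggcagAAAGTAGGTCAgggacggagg

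The Per1 stretch (chr11:69098699-69098948, plus strand) holds an E-box whose first base lies at -166 from the start. In Cry1 (chr10:85185055-85185304, minus strand) an E-box begins at -60 and an E-prime box, read from the other strand, at -79. The Nr1d1 stretch (chr11:98775378-98775627, minus strand) has an E-prime box at -28, also on the other strand. Per3 (chr4:151044666-151044915, minus strand) carries the D-box at -205 and again at -158. The 30 bases of Arntl (chr7:113207528-113207557, plus strand) hold a ROR element that begins at 27 bases into the transcript. No match was found in the windows of Clock, Npas2, Nr1d2 and Dbp, which says only that these letters are not in those windows.

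Library totals ran from 12217623 to 36511893 counts, a depth that gave even the scarcest member, Npas2, 5 to 187 counts per mouse. The 8 brown adipocyte markers examined, Ucp1 among them, were present in all 40 mice. Skeletal muscle transcripts varied between and within groups. A muscle score (mean log2 CPM of 8 muscle genes) averaged 9.91 in control mice at 5 d and -0.14 in Jag antibody mice at 5 d, with the other 6 group means between 2.49 and 4.77. The slope of log2 CPM on log2 exonic length averaged 0.10 in control mice at 15 h and -0.23 at 7 d, and 0.09 and -0.06 in Jag antibody mice at the same times.

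Nr1d1 was the most abundant member and Npas2 the scarcest. Per kilobase of exon, the median level over the 40 mice, with the lowest and highest mouse, was 27.9 (5.15 to 63.9) CPM (counts scaled for library size) for Nr1d1. The other repressors of the loop lay lower, at 8.01 (1.28 to 18.3) for Per1, 5.78 (1.17 to 11.3) for Nr1d2, 3.43 (0.959 to 11.7) for Per3, 3.35 (1.97 to 6.68) for Cry1 and 2.66 (0.503 to 13.4) for Per2. Among the activators the level per kilobase was 6.26 (2 to 11.8) for Clock, 2.39 (0.752 to 4.41) for Arntl and 0.464 (0.0916 to 1.46) for Npas2, and the output gene Dbp had 1.67 (0.195 to 8.3). The ranges of neighbours in this order overlapped in every case. Dbp spanned the widest range for its level, from 9 to 552 counts per mouse. On GRCm38 (GENCODE M21), the activators are Arntl (ENSMUSG00000055116) at chr7:113207465-113314126, Clock (ENSMUSG00000029238) at chr5:76209868-76304792 and Npas2 (ENSMUSG00000026077) at chr1:39193731-39363236. The period and cryptochrome genes are Per1 (ENSMUSG00000020893) at chr11:69095217-69109960, Per2 (ENSMUSG00000055866) at chr1:91415982-91459324, Per3 (ENSMUSG00000028957) at chr4:151003652-151044665 and Cry1 (ENSMUSG00000020038) at chr10:85131700-85185064. The REV-ERB genes are Nr1d1 (ENSMUSG00000020889) at chr11:98767932-98775333 and Nr1d2 (ENSMUSG00000021775) at chr14:18204054-18239127, and the output gene is Dbp (ENSMUSG00000059824) at chr7:45705088-45710203. Several gene models overlap others, and whether counting used the strand is not given in the sources used here. Nr1d1 shares 1075 bp with Thra, a thyroid hormone receptor gene on the opposite strand, Dbp shares 737 bp with Sphk2 on the opposite strand, and Per3 lies inside the same-strand gene Camta1, so their values carry that uncertainty.

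**Figure D1:**
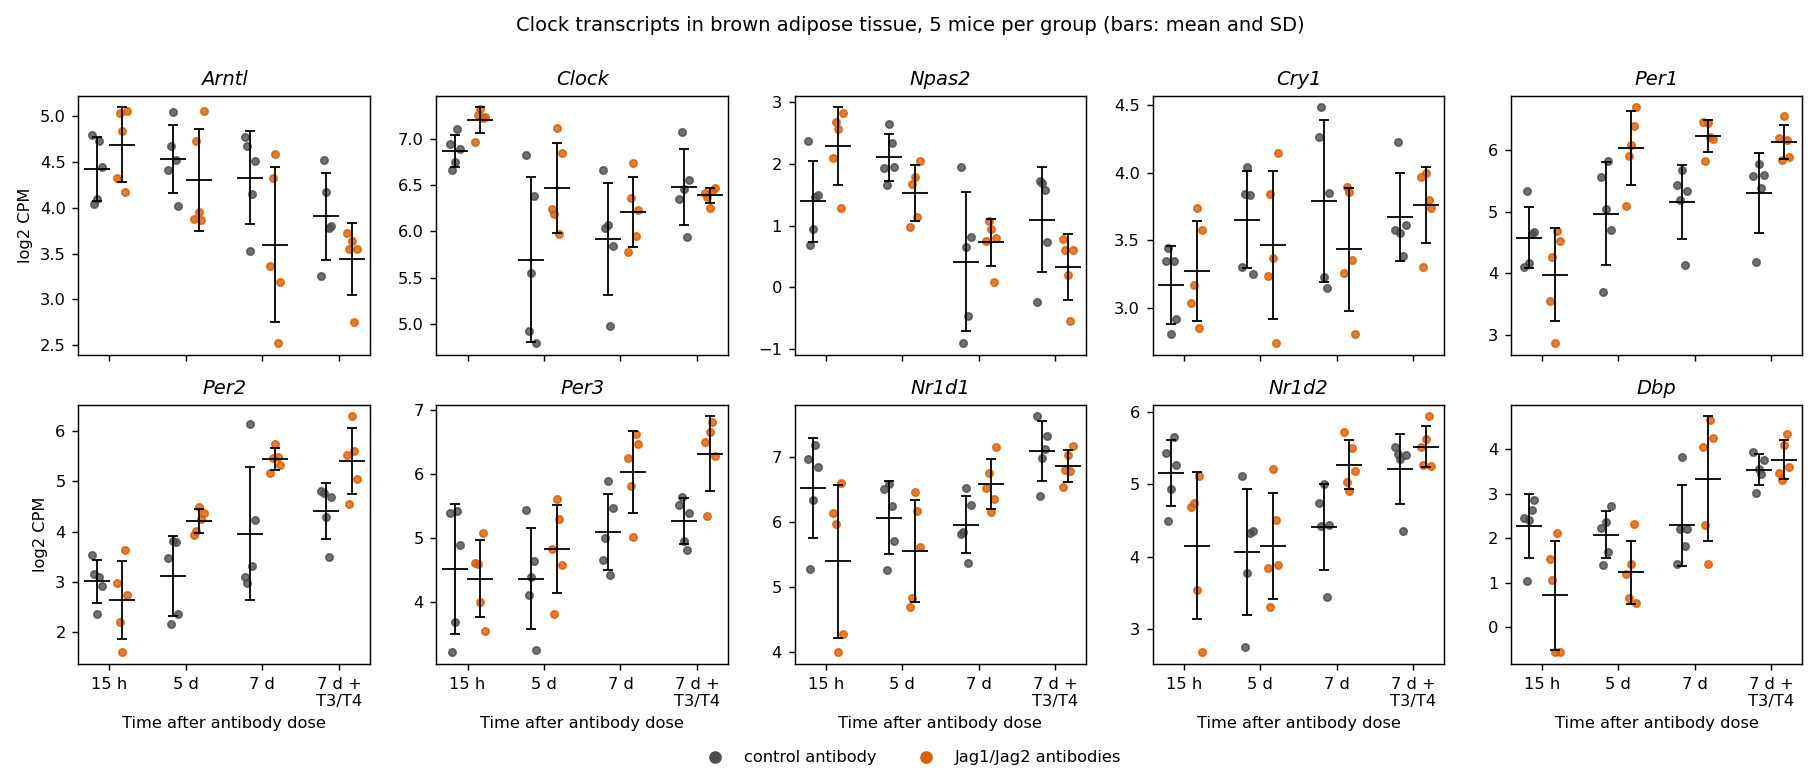
Each panel plots the level of 1 clock gene (log2 CPM, vertical axis) in the 8 groups (horizontal axis), with 1 point per mouse and bars for the mean and SD of 5 mice. Per1 and Per2 of the Jag antibody mice climb from 15 h to 7 d, and Npas2 and Arntl of the same mice descend.

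The clearest pattern lay between Jag antibody mice at 15 h and at 7 d. By 7 d the Per genes and Dbp had risen 3.19-fold to 6.63-fold and the activators Npas2, Clock and Arntl had fallen. In all, 7 of the 10 members were called (edgeR quasi-likelihood F test, adjusted p under 0.05 over all genes), 4 higher and 3 lower, beside 18.3% of all genes tested. The median log2 fold change of the 10 was 0.90, beside 0.04 over all genes. The groups did not overlap in 4 members (Per1, Per2, Clock and Npas2), which held for 16.8% of all genes.

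The period genes rose together. Per1, a repressor of the loop that also answers acute stimuli, had log2 CPM (log2 of the scaled count with a prior count of 2) of 3.55, 4.26, 2.87, 4.69 and 4.52 in the Jag antibody mice of 15 h. At 7 d the values were 6.46, 5.82, 6.45, 6.21 and 6.18. Every 7 d mouse was above every 15 h mouse, and the 7 d mice were tightly grouped. The log2 fold change was 2.13 (SE 0.35, adjusted p = 0.000198), a 4.37-fold rise. Per2, the period gene most tied to metabolic signals, had values of 2.99, 2.21, 1.61, 3.64 and 2.75 at 15 h and 5.16, 5.47, 5.75, 5.49 and 5.32 at 7 d. These groups were also fully apart, and Per2 had changed by 2.67 (SE 0.47, adjusted p = 0.000376), 6.37-fold. Per3 values were 4.61, 4.60, 4.0, 5.08 and 3.55 at 15 h and 6.24, 5.80, 5.01, 6.62 and 6.46 at 7 d. Mouse 8 at 7 d fell below the highest 15 h mouse, and the other 7 d mice were above all of them. For Per3 the log2 fold change was 1.68 (SE 0.41, adjusted p = 0.00556).

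Dbp, the transcription factor that drives many clock outputs, had values of 1.54, 1.06, -0.54, 2.11 and -0.56 at 15 h. At 7 d they were 4.05, 2.29, 1.42, 4.64 and 4.25. Mice 6, 9 and 10 at 7 d stood well above the 15 h group, mouse 7 was just above its highest mouse, and mouse 8 lay inside it. The log2 fold change of Dbp was 2.73 (SE 0.54, adjusted p = 0.00111), or 6.63-fold. Nr1d1 and Nr1d2, the repressors of Arntl, were higher on average but not called, at 0.90 (SE 0.39, adjusted p = 0.0961) and 0.91 (SE 0.38, adjusted p = 0.0831). Both were low in mice 8 and 10 at 15 h (4.0 and 4.28 for Nr1d1, 3.54 and 2.68 for Nr1d2), which are also the mice with the lowest Dbp. Nr1d2 was called with offsets for transcript length and GC content (adjusted p = 0.0181), and both were called without mouse 9 at 15 h (adjusted p = 0.0321 and 0.0369). Cry1, the other main repressor, was at 0.18 (SE 0.26, adjusted p = 0.65).

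The positive arm moved the other way. Npas2, the paralogue of Clock, had values of 2.09, 2.69, 2.57, 1.29 and 2.83 at 15 h and 0.76, 1.07, 0.96, 0.09 and 0.80 at 7 d in Jag antibody mice. No 7 d mouse reached the lowest 15 h mouse, and the log2 fold change was -1.67 (SE 0.42, adjusted p = 0.00698), a 3.17-fold drop. Clock had 6.97, 7.27, 7.34, 7.23 and 7.24 at 15 h and 5.77, 6.36, 6.75, 5.95 and 6.23 at 7 d, again without overlap, and the log2 fold change was -0.96 (SE 0.29, adjusted p = 0.0204). Arntl, the partner of both, had 4.33, 5.02, 4.84, 4.17 and 5.05 in the 15 h mice and 3.37, 4.32, 4.58, 2.53 and 3.20 at 7 d. Mice 6, 9 and 10 at 7 d, those with high Dbp, were below every 15 h mouse, while mice 7 and 8 lay within the 15 h range. Its log2 fold change was -0.94 (SE 0.31, adjusted p = 0.0325), and this call was lost under 3 of the alternative settings (adjusted p = 0.0726 with length and GC offsets) and without any 1 of 6 mice. The other 6 calls held in every alternative and without any single mouse of these groups. The 8 muscle markers summed to 3.06 to 2302 CPM at 15 h and 14.7 to 51060 CPM at 7 d, 0 of 8 were called by edgeR (0 with an unadjusted p under 0.05), and with the muscle score as a covariate 7 clock genes were called. Lymphocyte markers were called lower at 7 d for 6 of 6 (summed 3.39 to 67.5 CPM at 15 h, 2.39 to 5.03 at 7 d). Myeloid markers were called lower for 3 of 10 (summed 289.7 to 567.5 and 144 to 619 CPM). The log2 fold change was below 0 for 8 of the 10 myeloid markers and above 0 for 2. The part of the lymphocyte and myeloid markers in the result was not tested.

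**Figure D2:**
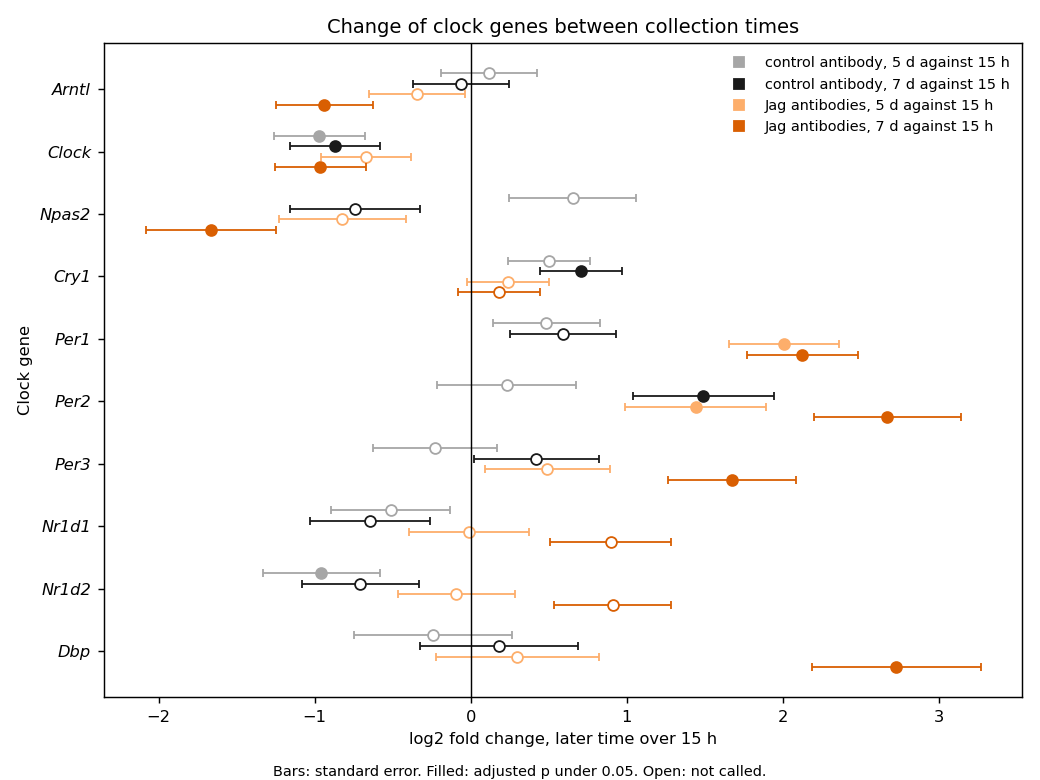
Points give the log2 fold change of each clock gene (horizontal axis) between times, with standard error bars, in control mice and in Jag antibody mice. Filled points have adjusted p under 0.05, which 7 genes reached for 7 d against 15 h in Jag antibody mice and 3 in control mice.

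Control antibody mice showed fewer calls over the same interval, 3 of 10 members, beside 45.1% of all genes tested. Clock values were 6.96, 6.67, 6.76, 7.11 and 6.89 at 15 h and 6.67, 6.04, 6.07, 4.98 and 5.84 at 7 d. Mouse 2 at 15 h and mouse 1 at 7 d had the same rounded value, with the 15 h mouse the higher before rounding, so the groups just failed to overlap, as for 25.6% of all genes. The log2 fold change of Clock was -0.87 (SE 0.29, adjusted p = 0.0142). Clock has the longest exonic length of the members (13727 bp), and with length and GC offsets its change was -0.14 (adjusted p = 0.477). Cry1 was 0.71 (SE 0.26, adjusted p = 0.0279) and with the same offsets it was 0.55 and not called (adjusted p = 0.101). Per2 was 1.49 (SE 0.45, adjusted p = 0.00749), from 3.55, 3.16, 2.36, 3.09 and 2.92 at 15 h and 3.10, 2.98, 6.15, 3.32 and 4.24 at 7 d. Mouse 3 at 7 d stood far above the other mice, and without it the change was 0.48 (adjusted p = 0.288). Myeloid markers were called lower for 10 of 10 in this comparison (summed 299.6 to 6277 CPM at 15 h, 113 to 275 at 7 d). At 15 h the mean log2 CPM of these markers was 8.61 in mouse 2 and 6.67 in mouse 3, beside 2.55 to 4.25 in the others. The part of the myeloid markers in the clock values was not tested.

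At 5 d the 2 kinds of mice again differed in their calls against 15 h, with the same 15 h mice as reference. In Jag antibody mice Per1 and Per2 were called, both higher, which is 2 of 10 members beside 14.5% of all genes. Per1 at 5 d was 5.10, 5.90, 6.09, 6.38 and 6.69, above all 15 h mice, and its log2 fold change was 2.01 (SE 0.35, adjusted p = 0.000797). Per2 at 5 d was 3.93, 4.01, 4.50, 4.25 and 4.37, also above all 15 h mice, at 1.44 (SE 0.45, adjusted p = 0.0301). The Per2 call was lost without any 1 of 4 mice (adjusted p = 0.0919 without mouse 8 at 15 h). The share of all genes with groups apart was not counted for this comparison, so the separation of Per1 and Per2 is only a description. In control mice Clock and Nr1d2 were called, both lower, 2 of 10 beside 36.4% of all genes. Their log2 fold changes were -0.97 (SE 0.29, adjusted p = 0.0102) and -0.96 (SE 0.38, adjusted p = 0.0434), and length and GC offsets removed both calls (adjusted p = 0.12 and 0.319). The Clock call was kept in 5 of 8 alternatives and in 8 of 10 fits that left out 1 mouse. For Nr1d2 the call was kept in 3 of 8 and in 2 of 10. From 5 d to 7 d, 1 member was called in each kind of mouse. It was Npas2 in control mice (log2 fold change -1.40, SE 0.42, adjusted p = 0.0321, beside 9.13% of all genes) and Dbp in Jag antibody mice (2.43, SE 0.53, adjusted p = 0.00991, beside 3.29%). With the muscle covariate Npas2 was -1.34 in control mice and not called (adjusted p = 0.105), and its call was also lost without any 1 of 4 mice (adjusted p = 0.0603 to 0.0979). Dbp was not called when only the Jag antibody mice of 5 d and 7 d were fitted (adjusted p = 0.0975). From 15 h to 5 d, myeloid markers were called lower for 4 of 10 in Jag antibody mice (summed 289.7 to 567.5 CPM at 15 h, 176 to 707 at 5 d) and for 8 of 10 in control mice (299.6 to 6277 and 356 to 661 CPM). The control mice with the highest myeloid levels at 15 h were mice 2 and 3. Lymphocyte markers were called lower for 4 of 6 in Jag antibody mice (3.39 to 67.5 and 2.48 to 5.07 CPM), with the high level at 15 h in mouse 6 alone. The part of these markers in the clock values was not tested.

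These time comparisons bear on the hour of collection. An interval from 15 h to 5 d or to 7 d is 9 h longer than a whole number of days, while 5 d and 7 d lie a whole number of days apart. If all mice were dosed at the same hour and collected at the stated times, the 15 h mice were taken at another hour than the rest, but the labels do not say so. Time since the dose and hour of collection therefore cannot be told apart between 15 h and the later groups. The difference of Dbp and Arntl log2 CPM in a mouse, a simple summary of an output gene and an activator, averaged -2.15 ± 0.57 (SD, n = 5) in control mice at 15 h. It was -2.45 ± 0.75 at 5 d and -2.04 ± 1.37 at 7 d, so the control means moved by less than their spread. In Jag antibody mice the mean was -3.96 ± 1.56 at 15 h, -3.07 ± 1.21 at 5 d and -0.27 ± 2.23 at 7 d. With hormone at 7 d it was -0.37 ± 0.79 in control mice and 0.32 ± 0.77 in Jag antibody mice. Jag antibody mice at 7 d alone ranged from -3.16 to 2.12. These means are a description, with no test.

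Whether the time course differed between antibodies was tested as an interaction. For 7 d against 15 h, a comparison added after the values had been seen, 0 of 10 members were called by edgeR, beside 1.31% of all genes, and 5 had an unadjusted p under 0.05, beside 17%. The largest was Dbp, 2.55 (SE 0.73, adjusted p = 0.0676), followed in size by Nr1d2, 1.62 (SE 0.53, adjusted p = 0.107), Nr1d1, 1.54 (SE 0.54, adjusted p = 0.132), and Per1, 1.53 (SE 0.48, adjusted p = 0.095). DESeq2 called Dbp and Per1 (adjusted p = 0.0191 and 0.0462). Without control mouse 3 at 7 d, edgeR called Dbp and Per2 (adjusted p = 0.0262 and 0.0293), and without Jag antibody mouse 8 at 7 d it called Dbp (adjusted p = 0.0375). The larger number of calls in Jag antibody mice was thus not shown to be a difference between antibodies by the test used here. For 5 d against 15 h the interaction called 0 members (0.0995% of all genes), with 2 at an unadjusted p under 0.05 (14.6%). From 5 d to 7 d it also called 0 (1.29%), with 1 at an unadjusted p under 0.05 (16.7%), and DESeq2 called 0 in both.

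At a given time, no clock gene differed between Jag antibody and control mice past the threshold. Over the 4 comparisons 0 of 40 tests were called by edgeR and 0 by DESeq2. At 15 h this stood beside 1.14% of all genes, at 5 d beside 8.02%, at 7 d beside 2.5% and at 7 d with hormone beside 1.14%. An unadjusted p under 0.05 was reached by 4, 3, 5 and 4 members in that order, beside 12%, 22.9%, 20.5% and 11.9% of all genes.

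**Figure D3:**
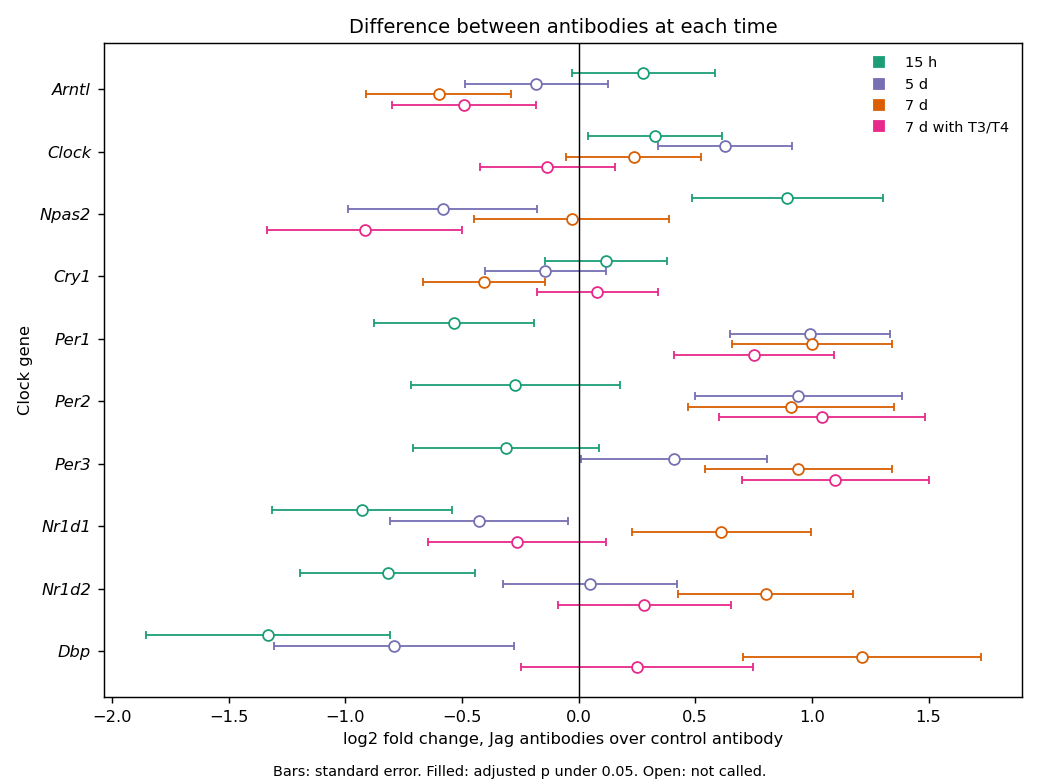
Points give the log2 fold change of each clock gene between Jag antibodies and control antibody (horizontal axis) with standard error bars, colored by time. All points are open because no adjusted p was under 0.05, and the Per1 and Per2 points lie above 0 at 5 d, 7 d and 7 d with hormone.

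Per1 came nearest. Its control values were 5.56, 3.69, 5.04, 5.83 and 4.70 at 5 d, where Jag antibody mice had 5.10, 5.90, 6.09, 6.38 and 6.69. The difference was 0.99 (SE 0.34, adjusted p = 0.0656), and it was called with length and GC offsets (adjusted p = 0.0218) and without any 1 of 3 mice. At 7 d the control values were 5.44, 5.18, 5.68, 4.14 and 5.34, all below the 5 Jag antibody values given above, and the difference was 1.00 (SE 0.34, adjusted p = 0.105). With hormone, 5.59, 4.18, 5.78, 5.38 and 5.60 in control mice lay below 6.20, 5.85, 6.55, 6.15 and 5.89 in Jag antibody mice, for 0.75 (SE 0.34, adjusted p = 0.363). Groups of Per1 were thus apart at 7 d with and without hormone, as for 6.59% and 3.31% of all genes. With hormone, Per3 (1.10, SE 0.40, adjusted p = 0.204) and Per2 (1.04, SE 0.44, adjusted p = 0.309) came nearer the threshold than Per1. Per3 was called there when only the groups compared were fitted (adjusted p = 0.0356). Per2 groups were apart at 5 d, as for 4.94% of all genes, with 0.94 (SE 0.44, adjusted p = 0.194). At 15 h the sign of Per1 was the other way, -0.53 (SE 0.34, adjusted p = 0.626).

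At 7 d without hormone, other members leaned toward Jag antibody mice only on average. Per2 differed by 0.91 (SE 0.44, adjusted p = 0.236), Per3 by 0.94 (SE 0.40, adjusted p = 0.182) and Dbp by 1.22 (SE 0.51, adjusted p = 0.175). The Per2 and Dbp values turned on control mouse 3, which had Per2 of 6.15, Dbp of 3.81 and Arntl of 3.53. Without it, Per2 was 1.94 (adjusted p = 0.00366) and Dbp 1.85 (adjusted p = 0.0365), both called. At 15 h Dbp was lower in Jag antibody mice, -1.33 (SE 0.52, adjusted p = 0.224), and so were Nr1d1, -0.93 (SE 0.39, adjusted p = 0.265), and Nr1d2, -0.82 (SE 0.38, adjusted p = 0.355), none past the threshold. Among Arntl, Clock, Npas2 and Cry1 the largest difference between the antibodies, with all mice and no offsets, was -0.92 (SE 0.42, adjusted p = 0.368), for Npas2 with hormone. Clock at 5 d was 0.63 (SE 0.29, adjusted p = 0.181), and was called with length and GC offsets (0.47, adjusted p = 0.0404) and without control mouse 1 (0.99, adjusted p = 0.0175). The muscle score at 5 d was 9.91 in control and -0.14 in Jag antibody mice, and with that score in the model edgeR called 0 clock genes at 5 d as well.

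In control mice given thyroid hormone, 1 of the 10 members was called at 7 d, the Arntl repressor Nr1d1, which was higher with hormone. This stood beside 43.2% of all genes. The mice without hormone are also those of the antibody comparison at 7 d. Its values were 5.81, 5.85, 6.52, 5.37 and 6.25 without and 7.62, 6.40, 6.97, 7.12 and 7.32 with hormone. All but mouse 2 of the hormone group lay above every mouse without hormone. The log2 fold change was 1.13 (SE 0.39, adjusted p = 0.0176), 2.19-fold, and the call was lost without control mouse 4 at 7 d (adjusted p = 0.0579) or mouse 1 of the hormone group (adjusted p = 0.0534). Dbp had 1.41, 2.19, 3.81, 1.81 and 2.20 without and 3.93, 3.02, 3.55, 3.43 and 3.75 with hormone, again apart but for mouse 3 without hormone. Its change of 1.02 (SE 0.51, adjusted p = 0.102) was not called, and without that mouse it was 1.66 (adjusted p = 0.011). Per2 was at -0.06 (SE 0.44, adjusted p = 0.921), and without the same mouse at 0.97 (adjusted p = 0.0324), a reversed sign. Arntl was -0.43 (SE 0.31, adjusted p = 0.272), and was called with length and GC offsets (adjusted p = 0.0262). Brown adipocyte markers were called lower for 4 of 8 in this comparison (summed 15780 to 42850 CPM without and 5719 to 10080 with hormone) and myeloid markers higher for 6 of 10 (summed 113 to 275 and 552 to 1112 CPM). Endothelial markers were called higher for 3 of 4 (summed 272.4 to 589.3 and 632.4 to 904.7 CPM), and the slope of log2 CPM on log2 exonic length averaged -0.23 without and 0.17 with hormone. The part of these in the clock values was not tested. In Jag antibody mice hormone called 0 members by edgeR and by DESeq2, beside 9.5% of all genes, with 0 at an unadjusted p under 0.05 (27%). There Nr1d1 differed by 0.25 (SE 0.38, adjusted p = 0.699). The antibody by hormone interaction called 0 members (0.00586% of all genes), with 0 at an unadjusted p under 0.05 (12.3%).

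Genes around the core loop gave a wider view. Of 21 such genes tested, 8 were called for 7 d against 15 h in Jag antibody mice, all higher, beside 18.3% of all genes in either direction. Ciart, which encodes a repressor of CLOCK and ARNTL, had the largest change, 2.44 (SE 0.45, adjusted p = 0.000625). Bhlhe40 and Bhlhe41, repressors that compete at E-boxes, were at 1.75 (SE 0.39, adjusted p = 0.00263) and 0.93 (SE 0.31, adjusted p = 0.0325). Tef, a relative of Dbp that binds the same D-box, was at 1.29 (SE 0.33, adjusted p = 0.00725). Others were Wee1 (0.96), Usp2 (1.16) and Csnk1e (0.49), which encodes a kinase of the PER proteins. The last pair lost their calls under 4 and 6 of 8 alternatives (with length and GC offsets Csnk1e was 0.25, adjusted p = 0.283), and Bhlhe41 lost its call without any 1 of 6 mice. Control mice had 7 called over the same interval, 3 higher and 4 lower, beside 45.1%. They included Bhlhe40 (1.16, SE 0.38, adjusted p = 0.0129) and Nfil3 (1.19, SE 0.34, adjusted p = 0.00459), which opposes DBP at D-boxes. With length and GC offsets Nfil3 was 0.66 and not called (adjusted p = 0.126). From 5 d to 7 d, 4 were called in Jag antibody mice (beside 3.29%) and 2 in control mice (beside 9.13%), with Bhlhe40 and Ciart higher in both.

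Hormone in control mice called 5 of the 21, beside 43.2% of all genes. Among them, Nfil3 fell (-1.68, SE 0.34, adjusted p = 0.000251). Wee1, Fbxw11 and Csnk1d rose by 0.74, 0.67 and 0.48 on the log2 scale, but under length and GC offsets Csnk1d was 0.19 and lost its call (adjusted p = 0.161). In Jag antibody mice 0 of 21 were called for hormone by edgeR, beside 9.5% of all genes. An unadjusted p under 0.05 was reached by 5, beside 27%. The antibodies at 5 d called 3, beside 8.02% of all genes, Bhlhe40 (-1.41, SE 0.38, adjusted p = 0.0219), Ciart (1.39, SE 0.45, adjusted p = 0.0476) and Rorb (1.46, SE 0.47, adjusted p = 0.0468). Ciart and Rorb lost their calls under 4 of the alternatives (Ciart was 0.86, adjusted p = 0.577, with the muscle covariate). At 7 d with hormone Usp2 alone was called, at 1.53 (SE 0.38, adjusted p = 0.0333), beside 1.14%. The Usp2 call was lost without the low-count filter (adjusted p = 0.0805) and was kept in 3 of 10 fits that left out 1 mouse. At 15 h and at 7 d none of the 21 was called by edgeR, beside 1.14% and 2.5% of all genes. An unadjusted p under 0.05 was reached by 5 and 11, beside 12% and 20.5% of all genes.

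Genes that respond to glucocorticoids or to acute stimuli were read beside Per1, since Per1 answers both. Tsc22d3, the glucocorticoid-induced leucine zipper gene, was called higher in the 4 comparisons in which the Per1 groups were apart. These share mice. Its log2 fold change was 1.43 (SE 0.29, adjusted p = 0.00148) for 7 d against 15 h in Jag antibody mice and 1.24 (SE 0.29, adjusted p = 0.00579) for 5 d against 15 h. For the antibodies at 7 d it was 1.35 (SE 0.29, adjusted p = 0.00965) without and 1.15 (SE 0.29, adjusted p = 0.0383) with hormone. Fkbp5, another glucocorticoid target, was called for the antibodies at 7 d (2.41, SE 0.61, adjusted p = 0.0282) and not for 7 d against 15 h in Jag antibody mice (0.42, SE 0.57, adjusted p = 0.626). The 4 genes of this list did not move together, since Zbtb16 was lower at 7 d than at 15 h in Jag antibody mice (-1.41, SE 0.51, adjusted p = 0.0485). For 5 d against 15 h in those mice 2 of 4 were below 0. Genes of this list were also called where Per1 was not. Hormone called 3 of 4 in control mice, 2 higher and 1 lower, beside 43.2% of all genes, with Per1 at 0.16. In Jag antibody mice it called 2, both higher, beside 9.5%, with Per1 at -0.09. For 7 d against 15 h in control mice 3 were called, 1 higher and 2 lower, beside 45.1%, with Per1 at 0.59. Of 7 immediate early genes, 1 was called at 7 d against 15 h in each kind of mouse, Fosb, higher in Jag antibody mice (3.33, SE 1.02, adjusted p = 0.0226) and in control mice (3.63, SE 1.02, adjusted p = 0.00436). Of the 7, 5 were below 0 in Jag antibody mice (median log2 fold change -0.92) and 3 in control mice (median 0.27). For 5 d against 15 h, 7 of 7 were below 0 in Jag antibody mice and 7 of 7 in control mice. In each, 3 were called lower, beside 14.5% and 36.4% of all genes called in either direction. The median log2 fold change was -1.59 in Jag antibody mice and -1.78 in control mice. Fos was among those called in Jag antibody mice (-4.22, SE 0.89, adjusted p = 0.00281). Between the antibodies, 7 of the 7 immediate early genes were below 0 at 7 d (median -1.55, 0 called). At 5 d 6 of 7 were below 0 (median -1.02), with 1 called lower, beside 8.02% of all genes. With hormone 6 of 7 were below 0 (median -0.27, 0 called), and at 15 h 4 of 7 (median -0.91, 0 called). Hormone called 5 of 7 lower in control mice, beside 43.2% of all genes, and 2 lower in Jag antibody mice, beside 9.5%. The part of either list in the Per1 values was not tested.

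Mice of the same group, sampled at the same stated time, still differed in the levels of clock genes. The mean SD within groups was highest for Dbp (0.784) and lowest for Clock (0.398) on the log2 scale. With each group centred on its mean, Arntl was correlated over the 40 mice with 3 of the 9 other members (permutation within groups, adjusted over the 9). Arntl was lower in mice with higher Dbp (r = -0.69, rho = -0.65, adjusted p = 0.00027 and 0.00045 for r and rho), and higher in mice with higher Cry1 (r = 0.70, rho = 0.73, adjusted p = 0.000225 and 4.5e-05) and higher Npas2 (r = 0.58, rho = 0.67, adjusted p = 0.000225 and 4.5e-05). Without the 2 mice farthest in Arntl, mouse 9 of the Jag antibody groups at 7 d with and without hormone, r was -0.65, 0.79 and 0.53. With the muscle score removed it was -0.72, 0.72 and 0.58. The other 6 members did not pass in the same test. Their r was 0.34 for Clock, -0.32 for Nr1d2, -0.27 for Per3, -0.19 for Nr1d1, -0.16 for Per2 and -0.07 for Per1. Library differences tied to gene length and GC content were not removed from these correlations, and their part was not tested. The slope on log2 exonic length ran from -0.45 to 0.19 among control mice at 5 d.

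**Figure D4:**
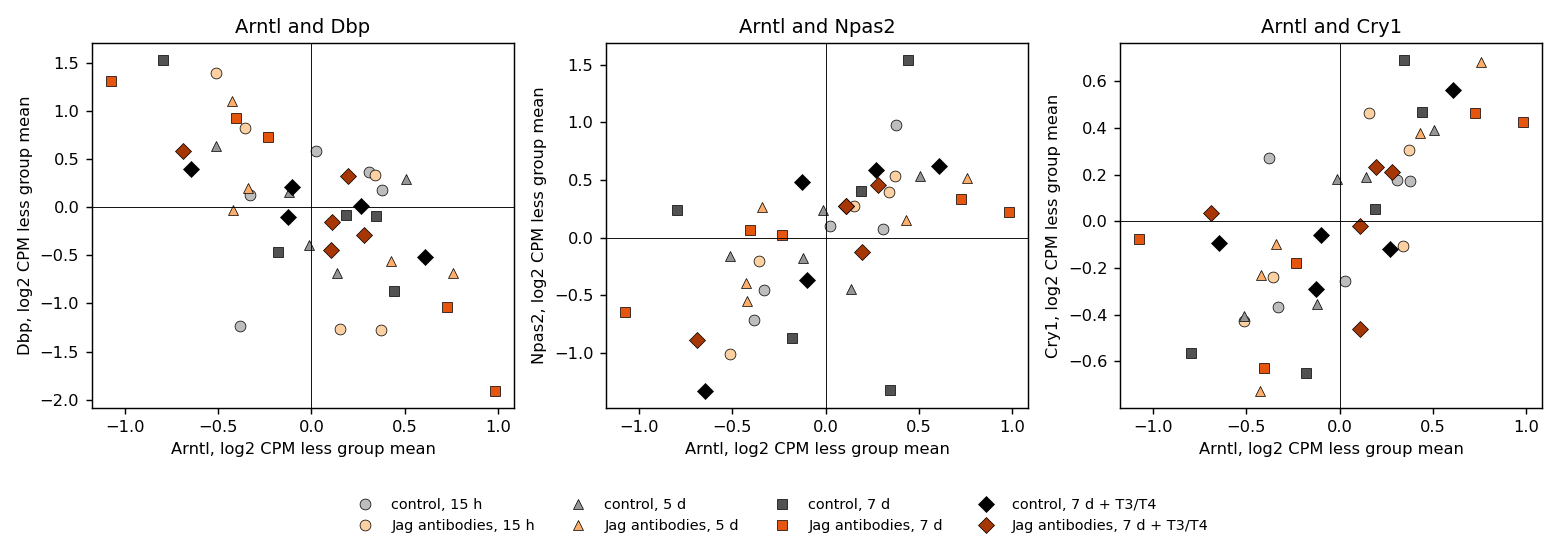
Each point is 1 of 40 mice, with Arntl (horizontal axis) and another member (vertical axis) as log2 CPM minus the mean of the mouse's group, colored by group. The Dbp cloud slopes down (r = -0.69) and the Cry1 and Npas2 clouds slope up.

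Outside the members, the genes whose level was most like that of Arntl or Dbp were sought by Pearson r of log2 CPM over the 40 mice, among 12140 genes. These correlations mix group differences with differences within groups and are a description. The 4 most like Arntl were Dtx4 (r = 0.73), Tshr (0.72), Elp4 (0.66) and Ankrd50 (0.65). Tshr encodes the thyrotropin receptor, and Dtx4 a Deltex family ubiquitin ligase. The 5 most like Dbp were Tef (0.81), Bhlhe41 (0.74), Trpm4 (0.70), Cry2 (0.70) and Sorbs3 (0.69), of which Tef, Bhlhe41 and Cry2 are themselves among the genes around the loop.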

How the data were processed

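Brown adipose RNA of 40 mice was sequenced as single-end reads, per the labels' protocols. The authors deposited raw counts, whole numbers for 52636 Ensembl genes. GSNAP and limma are named in the submitters' processing notes, and the genome build and strand use are not given in the sources used here. A deposited table of FPKM was not used here.

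The test was edgeR 4.0.16 (R 4.3.3) on the 17079 genes that filterByExpr left, with TMM scaling and 1 robust quasi-likelihood model of the 8 group means. Each contrast was tested two-sided with Benjamini-Hochberg adjustment over all genes, and called at an adjusted p under 0.05. Standard errors follow from the F statistic. There were 12 comparisons of pairs of groups and 4 interactions, of which 1 was added after the values had been seen. Log2 CPM used a prior count of 2. Symbols matched 52403 genes, and gene lengths and GC were taken from GENCODE M21 (GRCm38). Promoter windows are from RefSeq on GRCm38.p6.

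Alternatives were RLE size factors, DESeq2 1.42.0, fits of only the groups compared, no low-count filter, a muscle covariate, offsets for length and GC content, the title number as a replicate block (alone and with those offsets), and leaving out each mouse. Within-group correlations used 100000 permutations within groups, two-sided. The fits were tested on simulated data. Named genes are the 10 members and called genes of 3 lists: 21 genes around the loop, 4 glucocorticoid targets and 7 immediate early genes, plus the 5 genes most like Arntl and the 5 most like Dbp. Of the genes this rule names, 2 are not reported here. Members and lists were chosen with earlier results of these data known. Each library is taken to be a separate mouse, as the labels do not say otherwise, and p-values measure the spread between these libraries. No pair of libraries in a group agreed within counting noise (lowest chi-square per degree of freedom 18.3).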

Additional observations from a re-analysis of the deposited data

Results flagged for a closer look

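Over the 10 clock genes and the difference of Dbp and Arntl, 88 groups of 5 mice were examined for a mouse that stood apart, and 7 had a gap ratio above 0.71, where chance gives about 1 in 20. In control mice with hormone, Per1 of mouse 2 was 4.18 log2 CPM where the nearest mouse had 5.38, and Cry1 of the same mouse was 4.23, above the nearest at 3.61. In the same group Nr1d2 of mouse 4 was 4.35, below the nearest at 5.36. Arntl of Jag antibody mouse 9 at 7 d with hormone was 2.75, below the nearest at 3.55. At 15 h Clock of Jag antibody mouse 6 was 6.97, below the nearest at 7.23, and Dbp of control mouse 2 was 1.03, below the nearest at 2.40. The difference of Dbp and Arntl in control mouse 3 at 7 d was 0.28 where the nearest mouse had -2.31, and this is the mouse on which several 7 d values in the report turn.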

How the results depend on the processing

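Of the 17 calls of clock genes in the report, 7 held under every alternative and without any single mouse of the groups compared: Per1 for 5 d against 15 h, and Clock, Npas2, Per1, Per2, Per3 and Dbp for 7 d against 15 h, all in Jag antibody mice. For 7 d against 15 h in Jag antibody mice the alternatives called 6 to 8 clock genes and the fits without 1 mouse 6 to 9, against 7. With length and GC offsets the number called was 2 for the antibodies at 5 d (0 in the report), 3 for hormone in control mice (1), 0 for 5 d against 15 h (2), 1 for 7 d against 15 h (3) and 2 for 7 d against 5 d (1) in control mice. Fitting only the groups compared gave 1 for the antibodies at 7 d with hormone, 2 for hormone in control mice, and 0, 1 and 0 for 5 d against 15 h, 7 d against 15 h and 7 d against 5 d in control mice. Without the low-count filter 1 was called for 5 d against 15 h in Jag antibody mice and 1 in control mice. The muscle covariate left 1 call for 5 d against 15 h and 0 for 7 d against 5 d in control mice. DESeq2 called 2 for 7 d against 5 d in control mice, 2 in Jag antibody mice, and 2 in the added interaction of 7 d against 15 h. RLE size factors moved no count of calls by over 1.5 times.

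Leaving out 1 mouse gave 0 to 2 calls for the antibodies at 5 d and at 7 d, 0 to 3 for hormone in control mice, 0 to 2 for 5 d against 15 h, 2 to 3 for 7 d against 15 h and 0 to 2 for 7 d against 5 d in control mice, 1 to 3 for 5 d against 15 h in Jag antibody mice, and 0 to 2 for the added interaction. Per2 for hormone in control mice ran from -0.30 to 0.97, the highest without control mouse 3 at 7 d. The causes of these changes were not tested, beyond that fits without a mouse or of only the groups compared hold fewer mice.

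The labels do not pair same-numbered mice. Their deviations had a mean correlation of 0.0819 to 0.195, with 2 to 4 of 5 pairs over 0.1. With the replicate block 2 clock genes were called for hormone in control mice. The replicate block with length and GC offsets called 3 there, 0 for 5 d against 15 h and 1 for 7 d against 15 h in control mice, and 2 for 7 d against 5 d in Jag antibody mice. Every mouse was closest to its own number in none of the comparisons (at most 4 of 5). The replicate block lost the call of Per2 for 7 d against 15 h in control mice (adjusted p = 0.0562) and gained Dbp for hormone in control mice (adjusted p = 0.0391).

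The background counts also moved. Over the alternatives the genes called were 1753 to 4249 for 7 d against 15 h in Jag antibody mice (3126 in the report) and 5939 to 8173 in control mice (7698). They were 0 to 6953 for 5 d against 15 h in control mice (6214, with 0 when only those groups were fitted), 89 to 1992 for the antibodies at 5 d (1369, with 89 under the muscle covariate) and 35 to 835 at 7 d (427). Depth limits Npas2 and Dbp most, with as few as 5 and 9 counts in a mouse.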
